A study of Mus musculus with 18 samples.

Results

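The 4 mRNA sites described here lie 1 each in Bag6, Myl4, Prox2 and Gm16835, out of 251 mRNA sites in 235 genes. They are the rows of the mRNA table that carry these names, and they were chosen by a mean 5-methylcytosine (m5C) level above 60% in wild-type (WT) libraries. The WT level is therefore given as a description, without a test. The libraries came from testes of adult Nsun7 knockout (KO) mice and of adult WT mice, with 3 polyadenylated RNA libraries per genotype among 18 libraries in 3 RNA fractions. The labels name no strain, knockout allele or age beyond adult. Whether each library is a separate animal is not stated in them, so p-values from the fits over libraries cover the spread between libraries only, and that spread may be technical.

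The cytosines of RNA can carry a methyl group at carbon 5, set in most known cases by the NOL1/NOP2/Sun (NSUN) enzymes or by DNMT2. Bisulfite turns unmethylated cytosine into uracil, so the share of reads that still show C at a position is read as its m5C level. A cytosine that escapes conversion is read as methylated as well, and how complete conversion was is not known from these tables. m5C is abundant in tRNA and rRNA and is generally sparse and partial in mRNA. Nsun7 encodes a family member expressed in testis, and the series title calls its protein catalytically inactive on RNA. Nsun7 itself has no site in the mRNA table, so the knockout cannot be checked here.

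Bag6 encodes a chaperone that binds exposed hydrophobic segments, hands tail-anchored membrane proteins to their targeting factors and sends failed ones to degradation. Male mice without it lose germ cells during meiosis. Myl4 encodes an essential myosin light chain of embryonic muscle and of the heart atria. Prox2 encodes a homeodomain transcription factor related to Prox1. Gm16835 is listed as a long non-coding RNA in the RefSeq gene table, which matched all 4 names and gives the other 3 as protein-coding. In the coordinates of the deposited table, whose build is GRCm39 per the submitters' processing notes, the Bag6 site is at position 35361763 of chromosome 17, on the plus strand. The Myl4 site is at position 104476591 of chromosome 11 and the Gm16835 site at position 119345253 of chromosome 14, both on the plus strand. The Prox2 site is at position 85142265 of chromosome 12, on the minus strand. Each of the 4 genes had 1 listed mRNA site and none in the small RNA table. The bases around the sites and their place in exons, introns or UTRs were not analysed here.

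Of 18 gene names of BAG6 function and tail-anchored protein targeting that were looked up, 2 had a listed mRNA site, Bag6 and Rnf126. Some of these names are older and newer symbols of the same gene. Rnf126 encodes a ubiquitin ligase that works with BAG6, and its level was 6.83% ± 0.411 in KO libraries and 5.28% ± 1.17 in WT libraries (SD, n = 3 each). Myl4 was the only 1 of 17 myosin light chain genes and partners with a site, and Prox2 the only 1 of 3 names looked up for the Prospero group. Bag6, Myl4 and Prox2 were chosen as genes with a site, so their own places in these counts were fixed in advance. The share of all genes with a listed site is not given here, so nothing is read from the counts. Of 17 genes of RNA m5C writers, erasers and readers, Ybx3, which encodes a Y-box RNA-binding protein of germ cells, had a site, at 32.0% ± 2.20 in KO libraries and 32.0% ± 1.22 in WT libraries (SD, n = 3 each). After Benjamini-Hochberg adjustment over all mRNA sites, the quasi-binomial model of the level gave p = 0.575 at Rnf126 and 0.984 at Ybx3. Among marker genes of testis cells, sites were listed in 2 of 13 for germ cells (Adam2 and Piwil1), 1 of 5 for Sertoli cells (Amhr2), 1 of 6 for Leydig cells (Insl3) and 0 of 8 for other cells. A gene without a listed site may still be expressed, so these counts say little of the cell types present.

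At Bag6 most reads showed C in every library. In KO libraries 328 of 356 reads, 385 of 417 reads and 118 of 128 reads showed C, levels of 92.1%, 92.3% and 92.2%. In WT libraries the same held for 291 of 320, 270 of 295 and 127 of 140 reads, levels of 90.9%, 91.5% and 90.7%. All 3 KO levels lay above all 3 WT levels, as they did at 13 of the 251 mRNA sites (5.18%), Bag6 included. None of the 6 libraries fell below 90%. The exact 95% binomial interval of the shallowest library, KO replicate 3, ran from 86.1% to 96.2%. Such intervals hold the error of counting alone, and without molecular identifiers several reads can stem from 1 molecule.

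Myl4 had intermediate levels that differed among libraries. KO libraries stood at 53.8%, 69.1% and 56.3% with coverage of 80, 81 and 32 reads. WT libraries stood at 61.6%, 62.1% and 69.0% with coverage of 73, 66 and 42 reads. KO replicate 2 was about as high as the highest WT library, while the other KO libraries lay below all WT libraries.

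Prox2 and Gm16835 rested on few reads. At Prox2, C was seen in 11 of 24, 16 of 28 and 8 of 12 reads in KO libraries (45.8%, 57.1% and 66.7%), against 10 of 14, 14 of 22 and 7 of 13 reads in WT libraries (71.4%, 63.6% and 53.8%). The genotypes overlapped, and the exact 95% interval of KO replicate 3 alone ran from 34.9% to 90.1%. At Gm16835, C was seen in 18 of 25, 9 of 20 and 11 of 17 reads in KO libraries (72.0%, 45.0% and 64.7%), against 19 of 29, 9 of 16 and 11 of 17 reads in WT libraries (65.5%, 56.3% and 64.7%). KO libraries held both the highest and the lowest Gm16835 level.

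**Figure D1:**
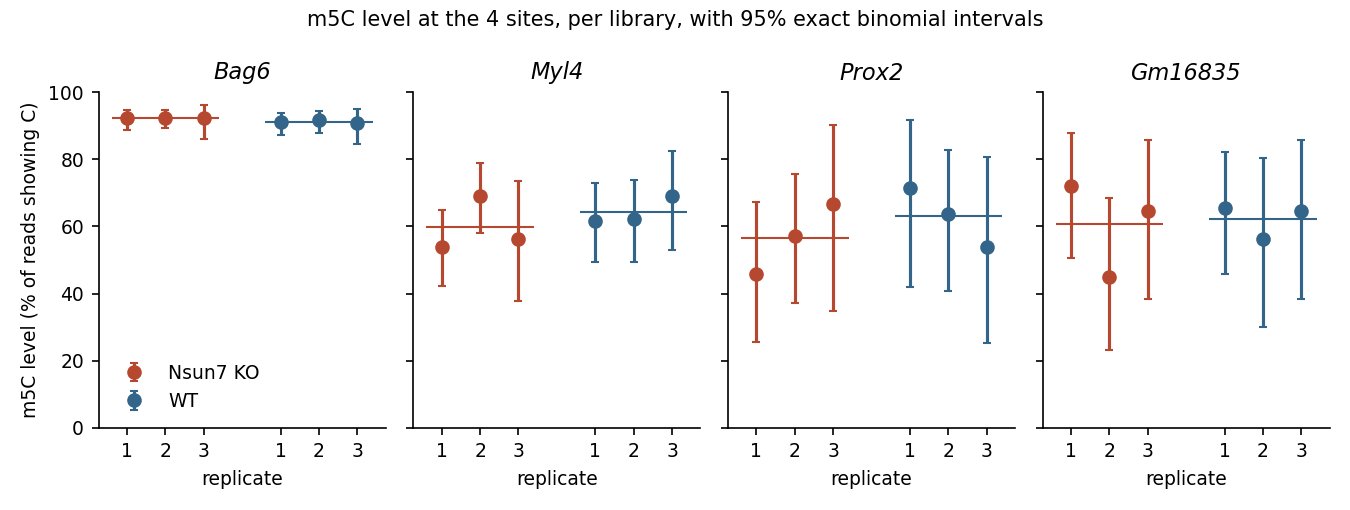
m5C level in percent of reads (vertical axis) at Bag6, Myl4, Prox2 and Gm16835 in each Nsun7 KO library (left, red) and WT library (right, blue). Points are libraries, bars are exact 95% binomial intervals of the single library and horizontal lines are group means; Bag6 stands above 90% throughout, while the bars of Prox2 and Gm16835 span much of the axis.

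The KO libraries were not used to pick the sites, and they show how far the 4 sites stood from the bulk of mRNA sites. The median mRNA site had 11.1% in KO libraries, the quartiles were 5.93% and 21.8%, and 69.7% of sites lay below 20%. Bag6 had 92.2% ± 0.0988, Gm16835 60.6% ± 14.0, Myl4 59.7% ± 8.26 and Prox2 56.5% ± 10.4 in KO libraries (SD, n = 3). They lay 81.1, 49.5, 48.6 and 45.5 percentage points above that median site. By KO mean, Bag6 ranked 1, Gm16835 ranked 4, Myl4 ranked 5 and Prox2 ranked 8 among the 251 sites.

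Bag6 ranked 1 in each of the 3 KO libraries and in each of the 3 WT libraries. The other ranks varied with the library. Myl4 ranked 10, 3 and 8 in KO libraries and 5, 6 and 2 in WT libraries. Prox2 ranked 21, 7 and 2 in KO libraries and 2, 4 and 8 in WT libraries, and Gm16835 ranked 2, 18 and 5 in KO libraries and 3, 10 and 3 in WT libraries. With 1 KO library left out, the rank by KO mean ranged from 3 to 9 at Myl4 (9 without replicate 2), from 4 to 12 at Prox2 (12 without replicate 3) and from 2 to 9 at Gm16835 (9 without replicate 1). Bag6 ranked 1 each time.

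Bag6 stood alone at the top. The next site by KO mean was D1Pas1, a testis DEAD-box RNA helicase gene, at 61.2% ± 5.35 (SD, n = 3), 31.0 points below Bag6. In WT libraries the next site was Myl4, 26.8 points below Bag6. No other site reached 90% in either genotype. Only 4 sites reached 60% in KO libraries, Bag6, D1Pas1, Vps26c and Gm16835. Between positions 2 and 8 of the KO order the means ran from 61.2% to 56.5%, a gap smaller than the SD of Myl4, Prox2 or Gm16835, so their order there is not resolved.

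In WT libraries Bag6 had 91.1% ± 0.419, Myl4 64.3% ± 4.14, Prox2 63.0% ± 8.81 and Gm16835 62.2% ± 5.13 (SD, n = 3), where the median site had 10.1%. Around the threshold of 60%, 6 sites lay above it. The other 2 were D1Pas1, at 61.2% in KO libraries and 62.3% in WT libraries, and Ap3b1, which encodes a subunit of the AP-3 vesicle coat adaptor, at 56.7% and 60.2% in the same order. Next below it were 1700001L05Rik, Cux1 and Tpgs2, with 53.6%, 56.9% and 38.5% in KO libraries and 58.9%, 55.9% and 55.8% in WT libraries. Gm16835, the lowest of the 4 members, and these neighbours differed by less than the SD of Gm16835 in WT libraries except for Cux1 and Tpgs2.

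Depth differed widely among the 4 sites and bears on how they compare with the bulk. Mean coverage over the 6 libraries was 276 reads at Bag6, 62.3 at Myl4, 20.7 at Gm16835 and 18.8 at Prox2, against a median of 127 reads over all mRNA sites. By mean coverage Bag6 ranked 42 of 251, Myl4 194, Gm16835 244 and Prox2 248. Across the 251 sites levels were lower where depth was greater, with Spearman's rho of -0.562 in KO libraries and -0.570 in WT libraries between mean coverage and level. The points share libraries and are not independent. Every listed site had at least 4 unconverted reads in each WT library, and the same count is a higher level where depth is lower. At the shallowest WT library of Prox2, 13 reads, 4 unconverted reads would already be 30.8%, against 2.86% at the shallowest WT library of Bag6, 140 reads. The authors' rule for listing a site is not known here. Whether a minimum count shaped the relation of level to depth was not tested.

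Set among sites of like depth, the 4 sites stood out to different degrees. Of 114 sites with at least 100 reads in every library, the median level was 6.62% in KO libraries and 6.68% in WT libraries, and Bag6 was the highest. Of 88 sites with mean coverage above 30 and up to 100 reads, the median was 19.6% in KO libraries and 18.4% in WT libraries. Myl4 was the highest in both. The WT places of Bag6 and Myl4 follow from the choice of the sites by WT level. In KO libraries Cux1 came next at 56.9%, and its gap to Myl4, 59.7% ± 8.26 (SD, n = 3), was smaller than that SD. Of 13 sites with mean coverage of 30 reads or less, the median was 38.1% in KO libraries and 38.1% in WT libraries. There Gm16835 ranked 2 and Prox2 ranked 3 by KO mean, behind Vps26c at 60.9% ± 4.99 (SD, n = 3). The distances of Myl4, Prox2 and Gm16835 from the median KO site of their depth were thus smaller than those from the median of all sites. The latter were 48.6, 45.5 and 49.5 points, in the same order.

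**Figure D2:**
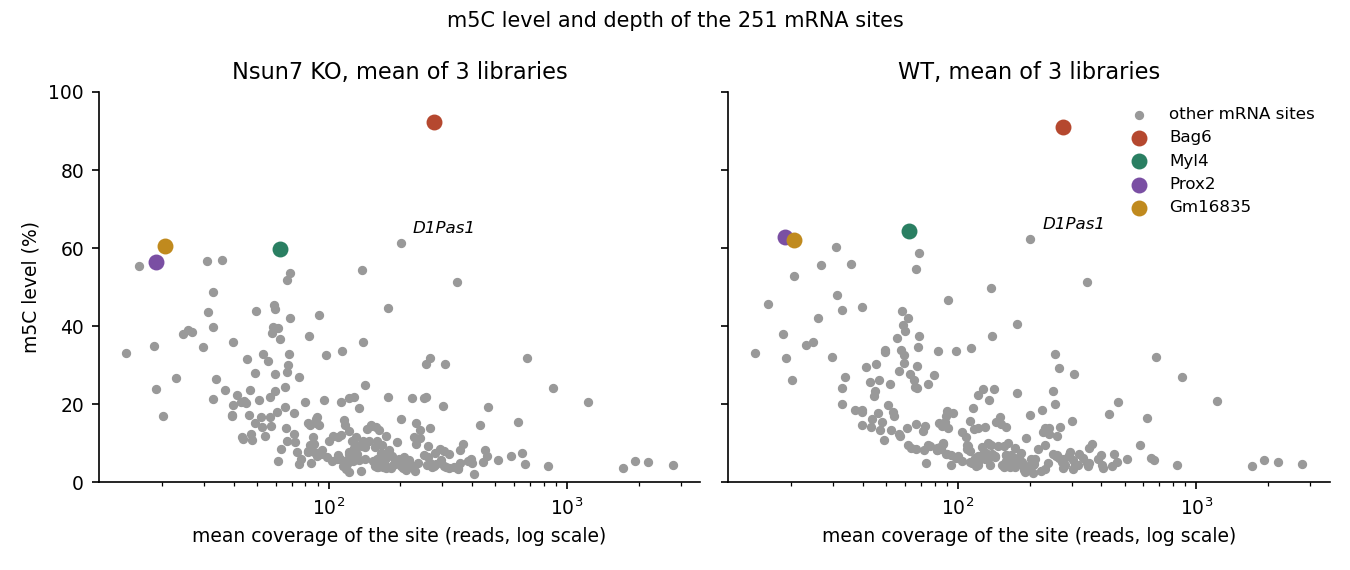
m5C level in percent (vertical axis) against mean coverage over the 6 libraries (horizontal log axis) for all 251 mRNA sites, with Nsun7 KO means on the left and WT means on the right. Grey points are other mRNA sites; Bag6 stands apart at 276 reads, while Prox2 and Gm16835 lie at the shallow end, where levels of other sites are high too.

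Small RNA sites, tRNA sites among them, gave another scale for these levels. Of 192 small RNA sites, 62 (32.3%) had a higher KO mean than Bag6, and 63 (32.8%) had a higher WT mean. At Myl4 the same count was 138 sites in KO libraries and 124 sites in WT libraries. The small RNA libraries were made with another kit, so levels are set side by side only.

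The closest sites by level over the 6 libraries were sought by the root mean square difference. For Bag6 the nearest were D1Pas1 and Myl4, at 30.1 and 30.3 points. For Myl4 they were Ap3b1 and D1Pas1, at 7.45 and 8.25 points, and for Prox2 D1Pas1 and Cux1, at 8.01 and 8.11 points. For Gm16835 they were D1Pas1 and 1700001L05Rik, at 6.42 and 8.57 points.

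At Bag6 the observed SD lay below the SD expected from counting reads alone. An SD over 3 libraries varies widely by itself, and whether this gap exceeds counting error was not tested. The observed SD was 0.0988 points in KO libraries and 0.419 in WT libraries, where counting error comes to 1.76 in KO libraries and 1.92 in WT libraries. The ratio of observed to counting SD was 0.0560 in KO libraries, with 0 of the other 250 sites lower, and 0.218 in WT libraries, with 8 sites lower. Over all sites the median ratio was 0.820 in KO libraries and 0.815 in WT libraries. At Myl4 the ratio was 1.24 in KO libraries and 0.650 in WT libraries, at Prox2 0.905 and 0.719 and at Gm16835 1.29 and 0.466, in the same order.

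**Figure D3:**
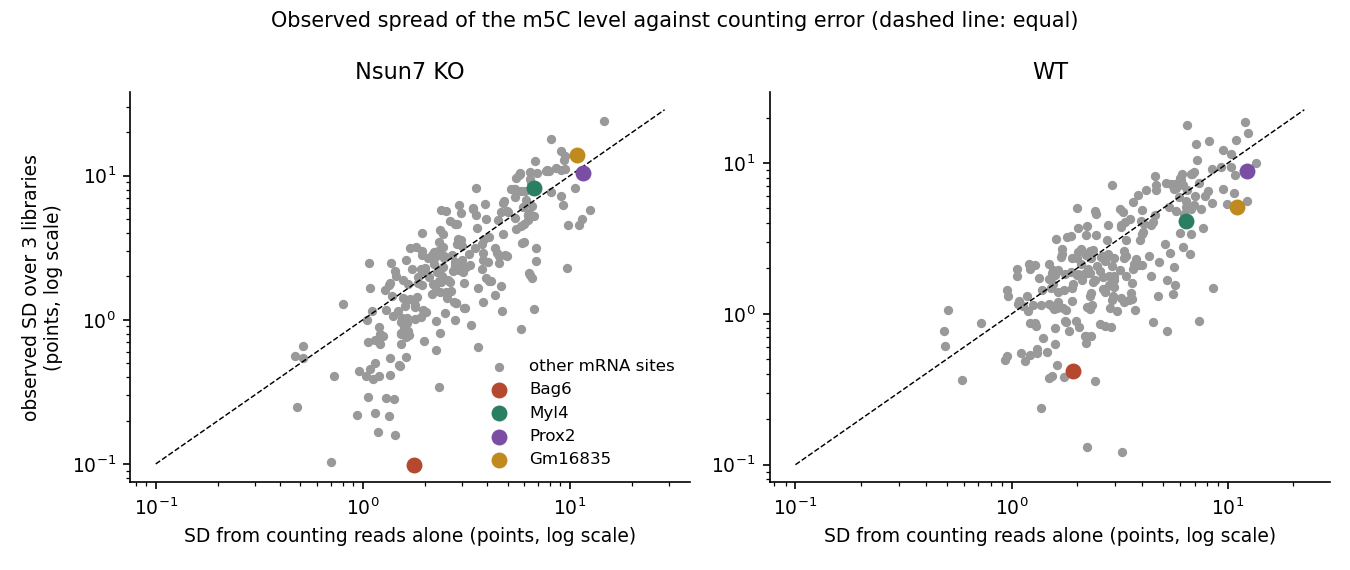
Observed SD of the m5C level over 3 libraries (vertical log axis, percentage points) against the SD that counting reads alone would give (horizontal log axis, points), for Nsun7 KO on the left and WT on the right. The dashed line marks equality. Bag6 lies far below it at 0.0988 points in KO libraries. Myl4, Prox2 and Gm16835 lie near it in KO libraries and below it in WT libraries.

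The genotypes were compared to ask whether the level at any listed mRNA site depends on Nsun7. At the 4 sites the KO minus WT difference was 1.16 percentage points at Bag6, -4.56 at Myl4, -6.42 at Prox2 and -1.59 at Gm16835. Because high WT values picked the sites, the differences share those values and lean towards lower KO levels. KO means were below WT means at 3 of the 4 sites and at 150 of all 251 sites (59.8%), and nothing is read from that count. Over all sites the quasi-binomial fit of C reads called 0 of 251 mRNA sites (0%) after Benjamini-Hochberg adjustment, and so did limma on the levels. Without adjustment, 20 sites (7.97%) passed 0.05 in the quasi-binomial fit and 14 sites (5.58%) in limma.

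At Bag6 the quasi-binomial fit gave an adjusted p of 0.340, and 2 other sites had a lower unadjusted p. Its unadjusted p of 0.00830 rests on the site's own dispersion of 0.0280, the lowest of the 251 sites. Counting error gives a value of 1 on average, and a dispersion from so few libraries is imprecise. With the dispersion held at 1 or above the unadjusted p was 0.462. The difference ran from 0.609 to 1.61 points over the 9 pairs of libraries, and the limma 95% interval from -1.30 to 3.61 points. Every KO library lay above every WT library at 13 sites (5.18%), Bag6 among them, and below at 16 sites (6.37%).

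At Myl4, Prox2 and Gm16835 that fit gave adjusted p of 0.972, 0.896 and 0.972. Over the 9 pairs of libraries the difference ran from -15.3 to 7.49 points at Myl4, from -25.6 to 12.8 at Prox2 and from -20.5 to 15.8 at Gm16835. The limma 95% intervals were -15.8 to 6.67 points, -22.8 to 9.96 points and -19.4 to 16.2 points. The intervals cover the share of reads showing C, which counts any C that escaped conversion. They also use the WT values that picked the sites, so no verdict on a loss of m5C is read from them.

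Single libraries decided the size of the 3 smaller-depth differences. With 1 library left out, the Myl4 difference ran from -9.27 points without KO replicate 2 to -1.58 without KO replicate 1. The Prox2 difference ran from -11.5 points without KO replicate 3 to -1.07 without KO replicate 1. At Gm16835 the difference turned to 6.20 points without KO replicate 2 and to 0.0907 without WT replicate 1. The Bag6 difference stayed between 0.985 and 1.39 points.

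**Figure D4:**
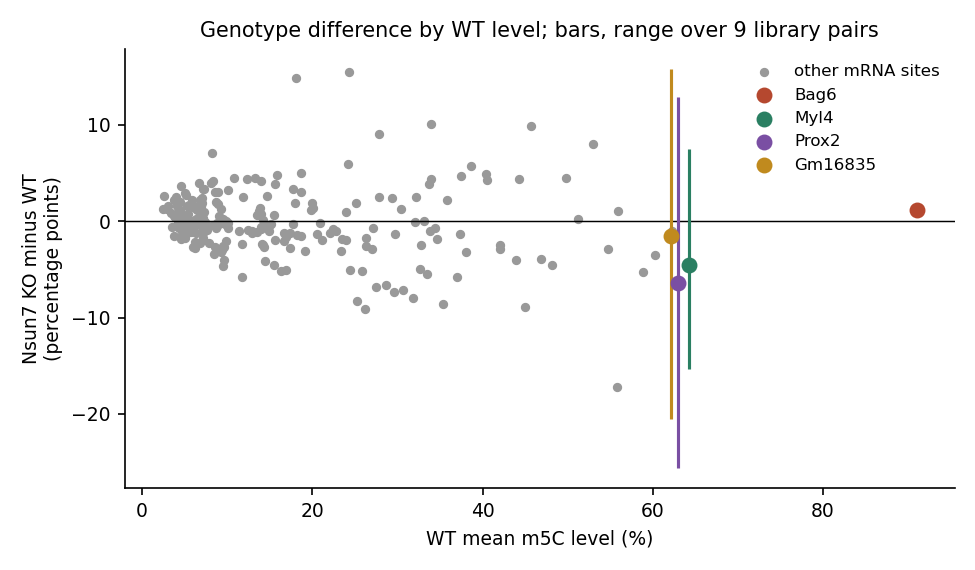
Nsun7 KO minus WT difference in m5C level in percentage points (vertical axis) against the WT mean level in percent (horizontal axis) for 251 mRNA sites. Coloured bars give the range over the 9 pairs of libraries at the 4 described sites; the Bag6 bar, 0.609 to 1.61 points, is hidden by its point, and the other 3 bars cross 0.

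Coverage was not used to pick the sites and was compared between genotypes as well. Raw coverage at Bag6 was 356, 417 and 128 reads in KO libraries and 320, 295 and 140 reads in WT libraries. Per 10000 reads of coverage summed over the listed sites, that was 64.6, 75.9 and 30.4 in KO libraries and 64.7, 65.1 and 27.6 in WT libraries. Replicate 3 stood low in both genotypes, by more than the genotypes differed. Myl4 showed the same pattern, with 14.5, 14.7 and 7.60 in KO libraries and 14.8, 14.6 and 8.28 in WT libraries on that scale. Prox2 had 4.35, 5.10 and 2.85 in KO libraries and 2.83, 4.85 and 2.56 in WT libraries, and Gm16835 had 4.53, 3.64 and 4.04 in KO libraries and 5.87, 3.53 and 3.35 in WT libraries.

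In edgeR's quasi-likelihood test without a replicate block the log2 fold change of coverage, KO over WT, was 0.08 at Bag6 (SE 0.36), -0.07 at Myl4 (SE 0.28), 0.23 at Prox2 (SE 0.29) and -0.11 at Gm16835 (SE 0.25). Each had an adjusted p of 0.988, and the test called 0 of 251 sites (0%), with 5 sites (1.99%) at an unadjusted p under 0.05. DESeq2 called 0 sites too, with 0 at an unadjusted p under 0.05. With the replicate number as a block the log2 fold change was 0.07 at Bag6 (SE 0.10), -0.07 at Myl4 (SE 0.18), 0.23 at Prox2 (SE 0.27) and -0.11 at Gm16835 (SE 0.26). That fit still called 0 sites, with 28 sites (11.2%) at an unadjusted p under 0.05, and the adjusted p was 0.954 at Bag6, Myl4 and Gm16835 and 0.919 at Prox2. Coverage of 1 position follows the amount of transcript only roughly, and in bulk tissue fewer cells of a type and less RNA per cell cannot be told apart.

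Replicate 3 of both genotypes held the lowest coverage at 145 of the 251 sites (57.8%), Bag6, Myl4 and Prox2 included. The ratio of scaled coverage in replicate 3 to the mean of replicates 1 and 2 was 0.433 at Bag6 in KO libraries and 0.425 in WT libraries, against medians over sites of 0.928 in KO libraries and 0.816 in WT libraries. Only 4 sites had a lower ratio than Bag6 in KO libraries and 9 sites in WT libraries. The labels give no reason for this, such as a shared preparation of replicate 3. The Bag6 level in replicate 3, 92.2% in the KO library and 90.7% in the WT library, was within 1 point of the other libraries of its genotype. The 6 mRNA libraries had 42086 to 55140 reads summed over the listed sites.

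**Figure D5:**
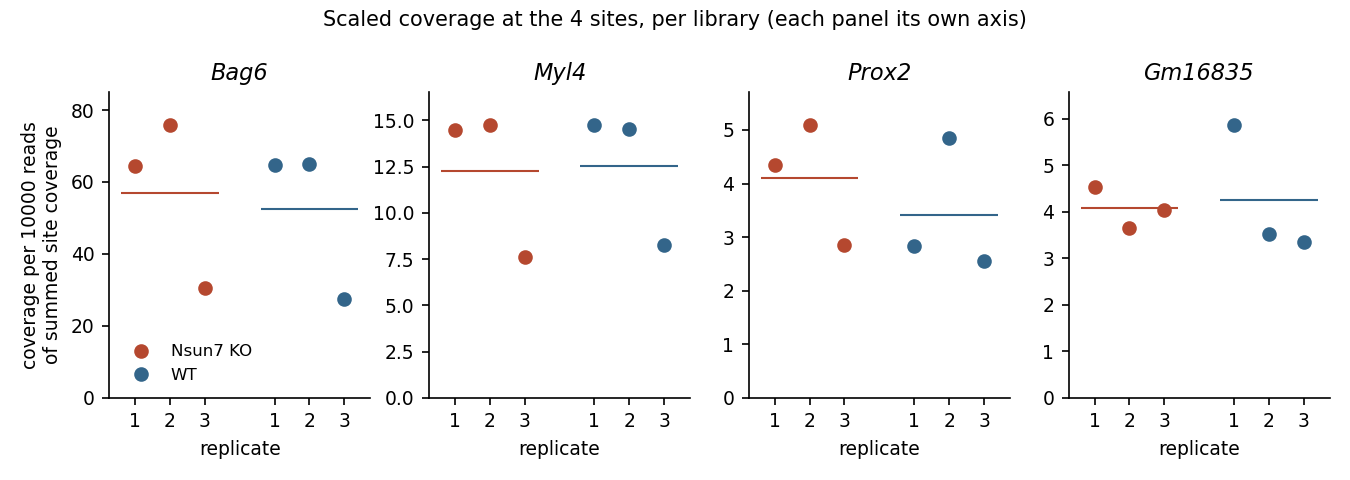
Coverage per 10000 reads of coverage summed over the listed sites (vertical axis, its own scale in each panel) at Bag6, Myl4, Prox2 and Gm16835, with Nsun7 KO libraries on the left (red) and WT libraries on the right (blue). Points are libraries and lines are group means; replicate 3 is the lowest library of both genotypes at Bag6, Myl4 and Prox2.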

How the data were processed

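Ultrafast bisulfite libraries of testis mRNA were read from a deposited table. For every site and library it gives the coverage and the C count, which are counts of reads without normalization. It also gives the m5C level, with 1 level left blank. The deposited level is a fraction, rounded by the authors to 2 decimals, and lies within 0.005 of C count over coverage. Per the submitters' processing notes, the tools were HISAT2, Bowtie2, SAMtools, cutadapt and Trimmomatic and the build was GRCm39; neither their roles nor their versions are given in the sources used here. Levels were recomputed as percentages from the counts. The small RNA table was used for its levels and names, and the 3 large RNA sites were not used here. No per-sample column was left unmapped (0). RefSeq's gene table is of GRCm38.p6 and was used for names only.

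Levels were tested in R 4.3.3 with a quasi-binomial logistic model per mRNA site (site's own dispersion, F test, two-sided), using libraries with 10 or more reads at the site where each genotype had 2 or more. Benjamini-Hochberg adjustment ran over all mRNA sites, with a threshold of 0.05. Coverage was tested with edgeR 4.0.16 (quasi-likelihood, TMM scaling) without a filter. Alternatives used limma 3.58.1, DESeq2 1.42.0, Fisher's exact test and the two-sided exact permutation test over libraries, whose smallest p is 0.1. Both fits were run on simulated data, where the level fit missed part of the sites that were given a lower KO level. A site that is not called is therefore not shown to have equal levels.

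The members and lists were chosen with earlier results of these data known. Named sites are the members, every other site above 60% in WT, the 3 next below, the 2 nearest in level to each member, and the list genes with a site, those of the cell type lists by name only. Vps26c was named after its values were seen, for its place in the order. Same-numbered libraries deviated together in coverage, with correlations of 0.530, 0.699 and 0.813 over sites, all above the limit of 0.1, so by that limit coverage counts as paired. Differently numbered libraries correlated at -0.755 to 0.510, with replicates 1 and 2 alike and replicate 3 apart in both genotypes. The main coverage fit has no block, and the blocked fit is given beside it.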

Additional observations from a re-analysis of the deposited data

How the results depend on the processing

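The quasi-binomial count of 0 mRNA sites that differed in level held with no coverage minimum, with a minimum of 20, with dispersions not below 1, with limma and with Fisher's exact test, which sums the reads of a genotype and so takes no account of the spread between libraries. With 1 library left out it ranged from 0 to 1, the 1 call, Asxl1, being made without knockout replicate 3 and named after its value was seen. For coverage it stayed at 0 without TMM scaling, in DESeq2, after edgeR's filter and with 1 library left out. With 1 library left out, the level difference at Gm16835 ranged from -7.30 to 6.20 points. The log2 coverage difference ranged from -0.17 to 0.36 at Bag6, from -0.22 to 0.14 at Myl4 and from -0.26 to 0.13 at Gm16835, turning sign at each. The cause was not tested. The rank by knockout level ranged from 3 to 9 at Myl4, from 4 to 12 at Prox2 and from 2 to 9 at Gm16835. Among sites with at least 20 reads in every library Bag6 stood 81.9 points above the median knockout site, against 81.1 over all sites. Prox2 and Gm16835 are not among those sites. In the level fit with a minimum of 20 they gave no value, having fewer than 2 WT libraries that reach it.

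Same-numbered libraries correlated in level at 0.0644, -0.0336 and 0.149 over sites. Only replicate 3 was above the limit of 0.1, and levels were not taken as paired. With the replicate block the level fit called 0 sites, and 22 sites had an unadjusted p under 0.05, against 20 without the block. The edgeR fit of coverage also called 0, with 28 sites at an unadjusted p under 0.05, against 5. The block changed no other call. Depth limits Prox2 and Gm16835 most, at 12 to 29 reads per library.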
